A study of Rattus norvegicus with 18 samples.

Results

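GATA factors are transcription factors that bind DNA through paired zinc fingers, and Gata2, Gata3, Gata4 and Gata6 were followed here through 6 culture states of rat extraembryonic endoderm precursor cells. The 4 genes were taken by symbol from the 28695 genes of the deposited count tables. Gata2, Gata4 and Gata6 passed the filter on low counts that left 11503 genes for testing, and Gata3 did not. Gata2 passed it through the vesicles and the CHIR99021-vacuolated cells, where its counts were high.

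The family is named after the DNA word GATA that its members recognise. GATA6 and GATA4 drive the formation of primitive endoderm in the blastocyst and keep the identity of the yolk sac endoderm and of cell lines derived from it, where they switch on laminin and collagen genes of the basement membrane. GATA2 and GATA3 are best known from blood stem cells, endothelium, trophoblast and several epithelia. A handover from GATA2 to GATA1 on shared sites is the textbook case of 1 family member taking the place of another during blood cell maturation.

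The cells, called rat XENP or pXEN in the labels, came from blastocysts of WKY rats, were labelled female and stood between passages 32 and 51. Each of 6 groups held 3 libraries. Serum-free vesicles grew in N2B27 medium with 10 ng/ml murine LIF and 3 µM CHIR99021, an inhibitor of the kinase GSK3 that activates Wnt signalling, and without feeder cells. Serum vesicles also received CHIR99021, with serum, at a dose that the labels do not make clear. Sorted CHIR-vacuolated cells had been treated with 0.5 µM CHIR99021 in routine culture and then sorted, by a criterion the labels do not give. CHIR-vacuolated cells had the same treatment without the sort. BCS-vacuolated cells were grown with 14% BCS, which the labels do not spell out. Normal cells, the shared control of 5 comparisons, were kept in routine culture. Every group was thus of the same strain and cell type, and no genetic change is recorded for any of them. Samples of a group stood at different passages, but nothing in the labels tells whether they came from separate derivations. Each p thus measures the spread between these samples, which may be passages of the same derivation.

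Each library held 4050722 to 12074939 strand-specific read counts, of which a pair of genes took 37.6 to 61.1%. Levels are in CPM, the usual depth-scaled count, with library sizes adjusted by the trimmed mean of M values (TMM), and are given per library or as mean ± SD with n = 3 libraries a group. Each adjusted p is from edgeR's quasi-likelihood test over 11503 genes (Benjamini-Hochberg), called under 0.05. Mitochondrially encoded genes took 7.11 to 9.43% of the counts outside that pair in serum-free vesicles, 7.91 to 9.31% in serum vesicles and 6.76 to 8.91% in sorted CHIR-vacuolated cells. They took 2.88 to 4.08% in CHIR-vacuolated, 3.29 to 4.32% in BCS-vacuolated and 3.13 to 3.38% in normal cells. The part of this difference in the results below was not tested. All 12 markers of rat XENP cells, among them Gata4 and Gata6 themselves, Sox17, Pdgfra and Pou5f1, were detected in every group. Detection does not mean that their levels were alike. Pou5f1 stood at 0.746 CPM in serum-free and 1.25 CPM in serum vesicles against 118 CPM in normal cells. Pdgfra had 293 and 244 CPM in these vesicles against 197 CPM.

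The promoters of Gata2 and Gata6, which stood at opposite ends of their range in vesicles, are shown with that of Gata3, the member at or near 0, so that they can be read beside the levels. RefSeq windows of the GRCr8 build were at hand for 3 of the 4 genes and run from 250 bases before to 50 bases after the gene's start. Capitals mark a match to a GATA word (the word AGATAA, the word AGATAG, the word TGATAA and the word TGATAG) or a TCF/LEF word (the word CTTTGAA, the word CTTTGAT, the word CTTTGTA and the word CTTTGTT), searched on both strands. All 3 lie on the + strand, Gata2 at chr4:122216031-122216330, Gata3 at chr17:73553298-73553597 and Gata6 at chr18:2460659-2460958.
Gata2: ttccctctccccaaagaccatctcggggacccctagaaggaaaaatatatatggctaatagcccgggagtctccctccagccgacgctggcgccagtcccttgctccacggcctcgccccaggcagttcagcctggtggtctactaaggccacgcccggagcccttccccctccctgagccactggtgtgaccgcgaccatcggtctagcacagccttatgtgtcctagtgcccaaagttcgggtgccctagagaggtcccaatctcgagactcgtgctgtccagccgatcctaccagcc
Gata3: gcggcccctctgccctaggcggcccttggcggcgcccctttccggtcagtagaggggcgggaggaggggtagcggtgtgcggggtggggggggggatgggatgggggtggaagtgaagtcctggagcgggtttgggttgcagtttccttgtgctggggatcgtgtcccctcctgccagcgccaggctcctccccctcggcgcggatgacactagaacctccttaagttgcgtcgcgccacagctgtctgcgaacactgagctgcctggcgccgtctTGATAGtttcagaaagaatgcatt
Gata6: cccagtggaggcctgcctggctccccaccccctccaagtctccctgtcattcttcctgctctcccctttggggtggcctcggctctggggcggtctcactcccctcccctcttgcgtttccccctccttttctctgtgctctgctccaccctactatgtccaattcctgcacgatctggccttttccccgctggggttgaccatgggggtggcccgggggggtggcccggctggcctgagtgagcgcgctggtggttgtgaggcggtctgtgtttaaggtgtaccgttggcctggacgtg
Gata3 held the single match, TGATAG on its own strand, 26 bases after the start. Gata2 and Gata6 held neither kind of word in these 300 bases. Among 33469 RefSeq promoter windows of the same length, 30.3% held a GATA word and 17.1% a TCF/LEF word. G and C made up 61.3% of the Gata2 window, 65.0% of that of Gata3 and 64.7% of that of Gata6, with 16, 20 and 12 CpG sites in that order. The reads were aligned to another build, rn6, so these windows carry no measurement of their own.

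Gata2 was all but silent in normal cells and reached its highest levels in vesicles. Its level was 69.5, 59.6 and 47.5 CPM in the serum-free vesicle libraries, 74.7, 92.5 and 82.5 CPM in the serum vesicle libraries, and 0.538, 0.576 and 0.303 CPM in the normal ones. Sorted CHIR-vacuolated cells had 10.9, 11.0 and 9.94 CPM, and CHIR-vacuolated cells 11.9, 9.31 and 12.7 CPM. BCS-vacuolated cells had 0.678, 1.21 and 0.129 CPM. The libraries thus formed 3 steps without overlap, with both vesicle groups on top, both CHIR99021-vacuolated groups in the middle, and BCS-vacuolated with normal cells at the bottom. Libraries lay fully above the normal ones for 32.3% of all genes in serum-free and 33.1% in serum vesicles. The share was 23.2% in sorted CHIR-vacuolated and 15.8% in CHIR-vacuolated cells.

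Behind these levels stood 1268 Gata2 counts in serum-free vesicles, 1514 in serum vesicles, 319 in sorted CHIR-vacuolated cells, 232 in CHIR-vacuolated cells and 16 in BCS-vacuolated cells, against 8 in normal cells. Gata2 was higher in serum vesicles than in normal cells by a log2 fold change of 7.45 (SE 0.32, 174-fold, adjusted p = 2.36e-15), in a comparison that called 31.7% of all genes higher. In serum-free vesicles it was 123-fold higher than in normal cells (log2 fold change 6.94, SE 0.32, adjusted p = 7.5e-15, with 30.2% of genes called higher). CHIR-vacuolated cells carried 23.8-fold more than normal cells (4.57, SE 0.37, adjusted p = 1.46e-08), where 4.49% of genes were called higher. That change was larger in size than those of 99.9% of the genes tested. After the sort the difference from normal cells was 22.2-fold (4.47, SE 0.37, adjusted p = 5.26e-09, with 14.4% called higher). In BCS-vacuolated cells, with an estimate of 0.59 (SE 0.60, 95% interval -0.65 to 1.83, adjusted p = 0.531), it did not pass the test, and 11.2% of genes did so upwards. That estimate turned to -0.31 without BCS-vacuolated replicate 2, the library with 11 of the 16 counts.

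Because normal cells held so few Gata2 counts, the size of these folds is loose. From summed counts, the ratio to normal cells was 182 in serum vesicles (95% counting interval 92.1 to 422), 125 in serum-free vesicles (63.0 to 289), 22.9 in sorted CHIR-vacuolated cells (11.5 to 53.5) and 24.9 in CHIR-vacuolated cells (12.4 to 58.4). With BCS the ratio was 1.53 (0.619 to 4.14). These intervals cover counting error only. In bulk samples such as these, fewer cells that express a gene and less RNA per cell cannot be told apart.

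**Figure D1:**
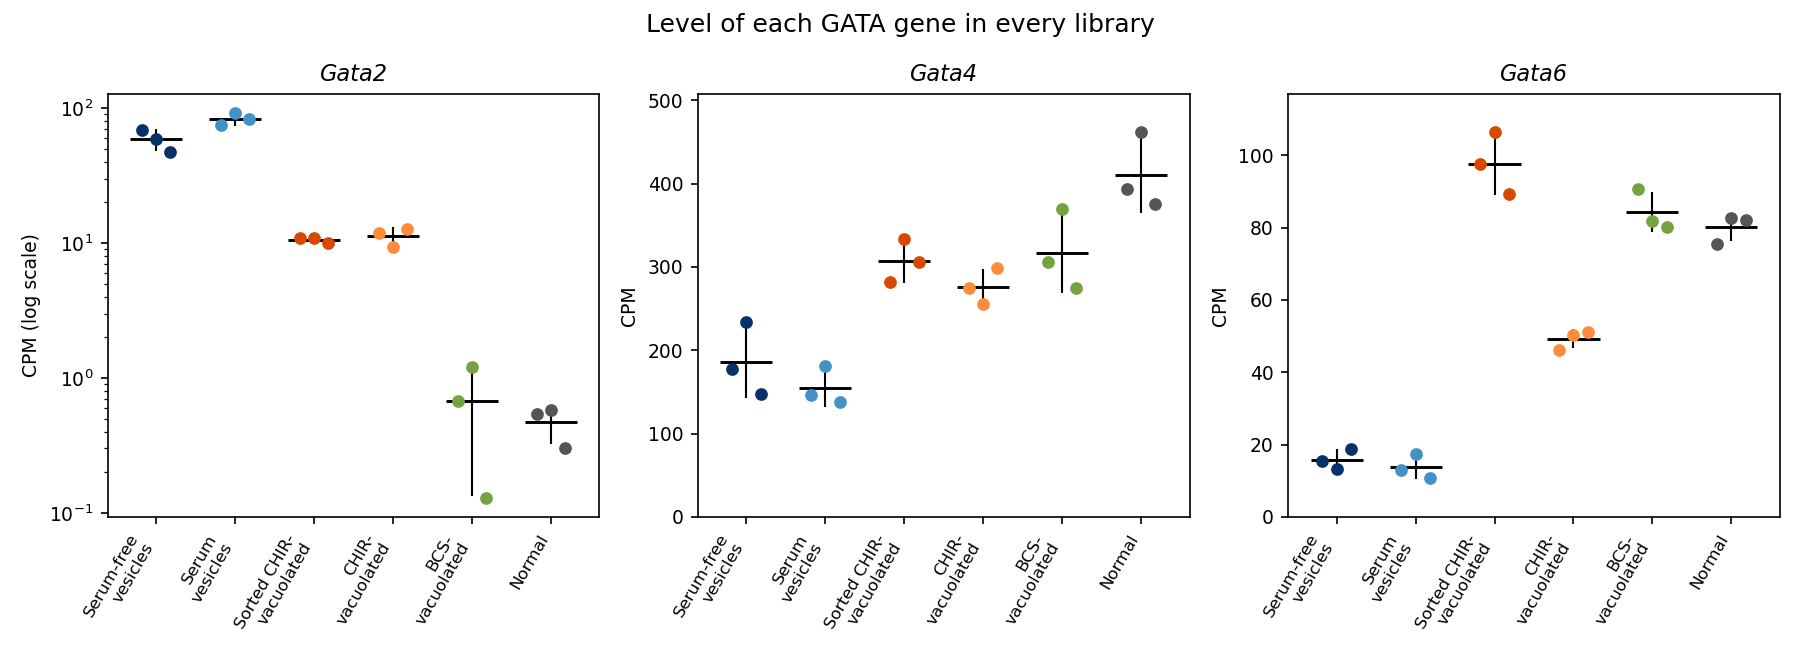
Level of Gata2 (CPM, log scale), Gata4 and Gata6 (CPM, linear scale from 0) in each of the 18 libraries, by group. Points are libraries, horizontal lines group means and vertical lines ± 1 SD (n = 3); Gata2 stands in 3 steps from 0.129 to 92.5 CPM, while Gata4 and Gata6 are lowest in both vesicle groups.

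Gata4, a core endoderm factor, was lowest where Gata2 was highest. It stood at 177, 234 and 148 CPM in serum-free vesicles, 146, 181 and 138 CPM in serum vesicles, and 394, 462 and 376 CPM in normal cells. In sorted CHIR-vacuolated cells it had 281, 333 and 306 CPM, CHIR-vacuolated cells 275, 255 and 298 CPM, and BCS-vacuolated cells 306, 369 and 275 CPM. Every normal library lay above all libraries of the other 5 groups, and the 3 vacuolated groups overlapped each other. So complete a separation below normal cells was found for 30.1% of all genes in serum-free vesicles, 30.6% in serum vesicles, 21.8% in sorted CHIR-vacuolated, 16.0% in CHIR-vacuolated and 19.7% in BCS-vacuolated cells. The drop was 2.64-fold in serum vesicles (log2 fold change -1.40, SE 0.15, adjusted p = 2.45e-08, with 28.8% of genes called lower) and 2.20-fold in serum-free vesicles (-1.14, SE 0.15, adjusted p = 6.63e-07, with 27.5% called lower).

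CHIR-vacuolated cells had 1.49-fold less Gata4 than normal cells (-0.57, SE 0.15, adjusted p = 0.0163, with 3.13% of genes called lower). Leaving out normal replicate 2 (adjusted p = 0.117), CHIR-vacuolated replicate 1 (0.0715) or CHIR-vacuolated replicate 2 (0.0885) ended this call. After the sort the level was 1.34-fold lower than in normal cells (-0.42, SE 0.15, adjusted p = 0.0397, with 11.5% called lower), a call that ended when any 1 of the 6 libraries was left out (adjusted p = 0.0507 to 0.175). In BCS-vacuolated cells Gata4 missed the threshold (-0.37, SE 0.15, adjusted p = 0.0776, with 9.51% called lower). It passed there without BCS-vacuolated replicate 2 (-0.50, adjusted p = 0.026), the highest library of that group.

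Gata6, the earliest of the endoderm factors to act in the blastocyst, was sharply lower in vesicles. Serum-free vesicles had 15.4, 13.2 and 18.9 CPM and serum vesicles 13.1, 17.4 and 10.8 CPM, against 75.6, 82.7 and 82.0 CPM in normal cells. Its level was 97.5, 106 and 89.2 CPM in sorted CHIR-vacuolated cells, 46.3, 50.4 and 51.1 CPM in CHIR-vacuolated cells, and 90.6, 81.9 and 80.3 CPM in BCS-vacuolated cells. No vesicle library overlapped with any other group, the CHIR-vacuolated libraries lay between them and the rest, and sorted CHIR-vacuolated libraries overlapped with BCS-vacuolated ones. Full separation below normal cells was found for 30.1% of all genes in serum-free vesicles, 30.6% in serum vesicles and 16.0% in CHIR-vacuolated cells. The drop against normal cells was 5.72-fold in serum vesicles (-2.52, SE 0.16, adjusted p = 1.98e-12, with 28.8% of genes called lower). In serum-free vesicles it was 5.04-fold (-2.33, SE 0.15, adjusted p = 4.14e-12, with 27.5% called lower). CHIR-vacuolated cells had 1.63-fold less than normal cells (-0.70, SE 0.14, adjusted p = 0.00204, with 3.13% called lower).

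In the other vacuolated groups Gata6 did not pass the test against normal cells. All 3 sorted CHIR-vacuolated libraries lay above the normal ones, as did those of 23.2% of genes, with a log2 fold change of 0.29 (SE 0.14, 95% interval 0.00 to 0.57, adjusted p = 0.132). With these groups fitted alone it passed (0.30, adjusted p = 0.0348). BCS-vacuolated and normal libraries overlapped, at 0.07 (SE 0.14, 95% interval -0.21 to 0.36, adjusted p = 0.76).

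Gata3, which is known from trophoblast and breast and bladder epithelium, was at or near 0 throughout. It had 7 counts in 5 of the 18 libraries, 3 of them in serum vesicle replicate 3, and none in CHIR-vacuolated cells or serum-free vesicles. A count of 0 allows up to 3 counts, which stand for up to 0.692 CPM in the shallowest library, so lower levels were not detectable at this depth. With no filter on low counts, its adjusted p over 20171 genes lay between 0.237 and 1 in the 9 comparisons. Among the other relatives, Gata1, the blood factor that takes over from GATA2, had 0 counts in all 18 libraries. Gata5, another endoderm relative, had 22 counts in 10 libraries and at most 6 in any. Trps1, an atypical GATA factor that represses, had 4 counts in serum-free vesicles, 5 in serum vesicles and at most 1 in any other group.

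Direct comparisons between the treated groups placed the changes. In a comparison that called 58.0% of all genes, serum vesicles had more Gata2 than CHIR-vacuolated cells, at 83.3 ± 8.94 against 11.3 ± 1.78 CPM (log2 fold change 2.87, SE 0.20, 7.32-fold, adjusted p = 2.61e-11, with 30.3% of genes called higher). They had less Gata4 (155 ± 22.9 against 276 ± 21.7 CPM, -0.83, SE 0.15, adjusted p = 5.28e-05) and less Gata6 (13.8 ± 3.33 against 49.2 ± 2.61 CPM, -1.82, SE 0.16, adjusted p = 8.11e-10), where 27.6% of genes were called lower. Vesicle culture and, as far as the labels tell, medium differ there together. The CHIR99021 dose, unclear for serum vesicles, may differ as well, and the parts of these cannot be told apart. CHIR-vacuolated cells had 15.9-fold more Gata2 than BCS-vacuolated cells (3.99, SE 0.32, adjusted p = 3.54e-08, with 5.83% of genes called higher). They had 1.71-fold less Gata6 (-0.77, SE 0.14, adjusted p = 0.000597, with 7.40% called lower), whereas Gata4 gave -0.20 (SE 0.15, 95% interval -0.51 to 0.11, adjusted p = 0.422).

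Between sorted and unsorted CHIR-vacuolated cells, Gata6 passed the test. Sorted CHIR-vacuolated cells averaged 97.7 ± 8.63 CPM of Gata6 and unsorted ones 49.2 ± 2.61 CPM, a 1.98-fold difference (0.99, SE 0.14, adjusted p = 3.99e-05, with 6.69% of genes called higher). For Gata2 the sorted to unsorted difference was -0.10 (SE 0.21, 95% interval -0.53 to 0.33, adjusted p = 0.815) and for Gata4 0.15 (SE 0.15, 95% interval -0.15 to 0.46, adjusted p = 0.57). Mitochondrially encoded genes also parted these groups. They took 6.76 to 8.91% of the counts outside the pair of most abundant genes in sorted and 2.88 to 4.08% in unsorted cells. Their part in the result was not tested.

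Between the vesicles, Gata2 was lower in the serum-free group, at 58.9 ± 11.0 CPM in serum-free and 83.3 ± 8.94 CPM in serum vesicles (-0.50, SE 0.18, 1.42-fold, adjusted p = 0.0406). Serum, medium, LIF, feeder cells and CHIR99021 dose may differ together in this comparison, and their parts cannot be told apart. Of all genes, 24.4% were called there, 12.9% higher and 11.5% lower. The Gata2 libraries did not overlap, as for 14.6% of genes that were lower in serum-free vesicles. This call ended without serum vesicle replicates 2 (adjusted p = 0.12) or 3 (0.0823), without serum-free vesicle replicates 2 (0.0876) or 3 (0.191), and with the vesicle groups fitted alone (0.0644). Gata4 (0.26, SE 0.15, 95% interval -0.05 to 0.58, adjusted p = 0.211) and Gata6 (0.18, SE 0.17, 95% interval -0.16 to 0.52, adjusted p = 0.447) overlapped between serum-free and serum vesicles.

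**Figure D2:**
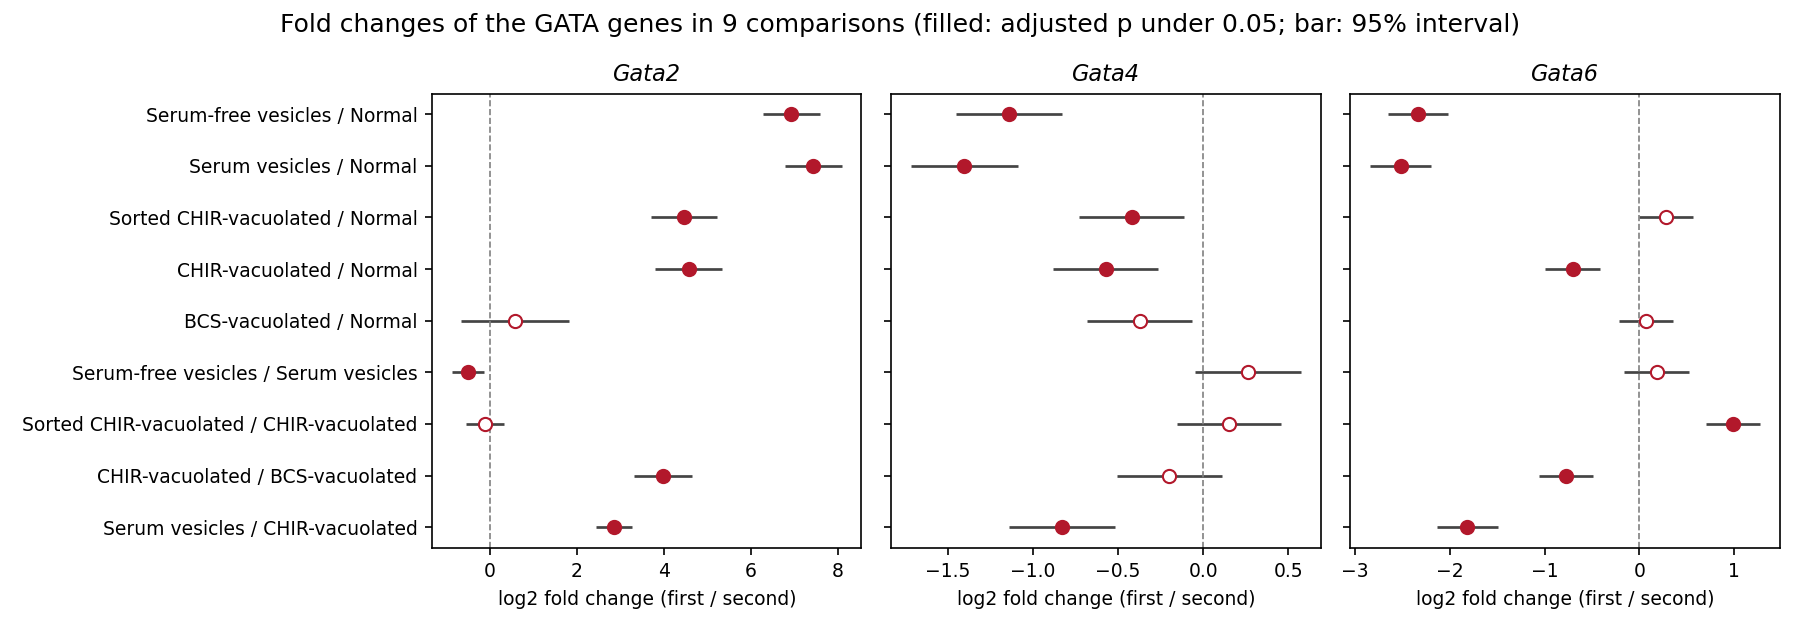
Log2 fold change of Gata2, Gata4 and Gata6 in the 9 comparisons, first group over second, each panel on its own scale. Points are estimates of the fit to all 18 libraries, bars 95% intervals, and filled points have an adjusted p under 0.05; Gata2 reaches 7.45 in serum vesicles while Gata6 falls to -2.52 there.

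The balance of the endoderm pair also differed between groups in these libraries. Gata6 made up 8.02, 5.34 and 11.3% of the summed Gata4 and Gata6 counts in serum-free vesicles and 8.22, 8.77 and 7.28% in serum vesicles, against 16.1, 15.2 and 17.9% in normal cells. It made up 25.7, 24.2 and 22.6% in sorted CHIR-vacuolated cells, 14.4, 16.5 and 14.6% in CHIR-vacuolated cells, and 22.8, 18.2 and 22.6% in BCS-vacuolated cells. The share was thus lowest in vesicles and highest after the sort, and BCS-vacuolated libraries stood above normal ones although their Gata6 levels overlapped. On the log2 scale (with 0.5 added to each count), the Gata6 to Gata4 ratio differed from normal cells by -1.19 in serum-free vesicles, -1.15 in serum vesicles, 0.70 in sorted CHIR-vacuolated cells and 0.45 in BCS-vacuolated cells. For each of these a two-sided exact permutation test with 3 libraries a group gave p = 0.1, the smallest it allows (adjusted p = 0.129 over 9 comparisons), so the design could not reach the threshold. CHIR-vacuolated cells differed from normal cells by -0.13 (exact p = 0.3), with overlapping libraries.

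**Figure D3:**
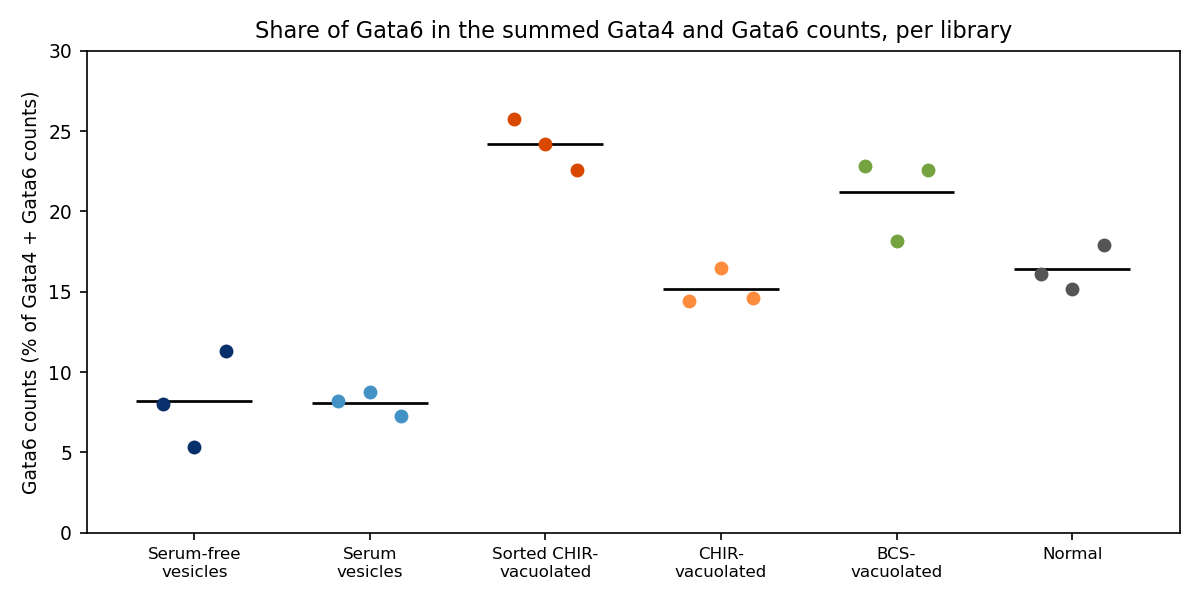
Gata6 counts as a percentage of the summed Gata4 and Gata6 counts in each library, by group. Points are libraries and lines group means (n = 3); vesicles lie at 5.34 to 11.3%, normal cells at 15.2 to 17.9% and sorted CHIR-vacuolated cells at 22.6 to 25.7%.

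Set beside each other, vesicles had high Gata2 with low Gata6 and low Gata4. Sorted CHIR-vacuolated cells had Gata2 at the same step as the unsorted ones and the highest mean Gata6 of all groups, with libraries that overlapped those of BCS-vacuolated cells. Across the 12 libraries that are not vesicles, Pearson's r of log2 CPM was -0.536 for Gata2 with Gata4, -0.321 for Gata2 with Gata6 and 0.389 for Gata4 with Gata6. These values are descriptions over 4 groups that share libraries and scaling. They also hold the step in Gata2 between CHIR99021-vacuolated cells and BCS-vacuolated or normal cells. As deviations from group means over the 18 libraries, Gata2 with Gata4 had r = 0.596. Gata2 with Gata6 had 0.031 there and Gata4 with Gata6 -0.007. The negative r of Gata2 with Gata4 was not found in these deviations, but it was taken over 12 libraries and they over 18. The Gata2 deviations also rest on few counts in BCS-vacuolated (1 to 11 a library) and normal cells (2 to 3). Over all 18 libraries no r of the levels is given for these pairs. The vesicles form a separate cluster there, with high Gata2 and low Gata4 and Gata6.

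**Figure D4:**
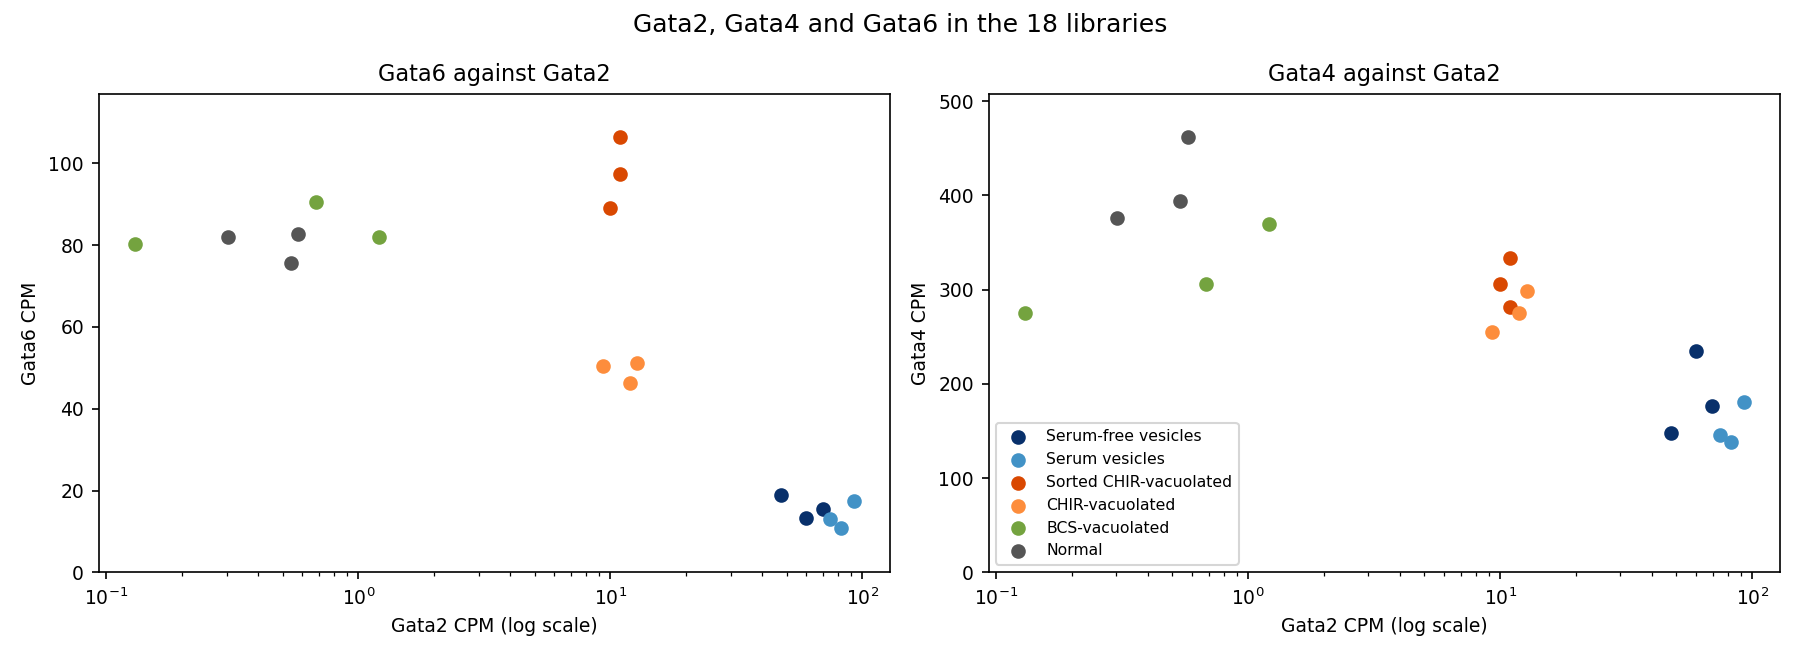
Gata6 (left) and Gata4 (right) in CPM against Gata2 in CPM on a log scale, with 1 point a library (n = 18). Sorted and unsorted CHIR-vacuolated libraries share their Gata2 range near 10 CPM but part in Gata6, at 89.2 to 106 and 46.3 to 51.1 CPM.

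The genes whose log2 CPM ran most like each member over the 18 libraries were looked up among 6997 genes of at least moderate level (mean log2 CPM of 3). Closest to Gata2 was Mmp15, a membrane-bound matrix metalloprotease, with r = 0.985 over 18 and 0.983 over the 12 libraries without vesicles. Its level was 77.2 CPM in serum-free vesicles, 71.2 in serum vesicles, 8.20 in sorted CHIR-vacuolated, 7.00 in CHIR-vacuolated, 1.11 in BCS-vacuolated and 0.459 in normal cells, in steps like those of Gata2. The RNA-binding protein gene Rbm47 (r = 0.961, and 0.951 without vesicles) and Arap2, a regulator of small GTPases (0.959 and 0.944), followed. Rbm47 had 79.6 CPM in serum-free vesicles and 94.9 CPM in serum vesicles against 20.6 CPM in normal cells.

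Gata4 was most like Mertk, a receptor for the uptake of dying cells (r = 0.949, and 0.903 without vesicles), with 14.1 CPM in serum-free vesicles and 15.6 CPM in serum vesicles against 74.4 CPM in normal cells. Tk1, a thymidine kinase of dividing cells (0.945), and Cyp4f39, a cytochrome P450 (0.942), came next, and Tk1 had r = 0.584 and Cyp4f39 0.940 without vesicles. Gata6 was most like the collagen receptor subunit Itga2 (0.979, and 0.864 without vesicles), the semaphorin Sema6d (0.975 and 0.750) and Tbkbp1, a binding partner of the kinase TBK1 (0.973 and 0.785). Itga2 shared with Gata6 the lower level in CHIR-vacuolated cells, at 35.0 CPM against 67.8 CPM after the sort. All these correlations are descriptions over libraries of the same groups. Without vesicles r stayed above 0.9 for Mmp15, Rbm47, Arap2, Mertk and Cyp4f39 and was lower for Tk1, Itga2, Sema6d and Tbkbp1. The genes were picked by r over all libraries, in which vesicles form a separate cluster. The r without vesicles uses part of the same libraries and is no independent check. Of the 9 genes, Rbm47 alone held GATA words in its promoter window, 2 of them, and none held a TCF/LEF word.

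Of 20 listed endoderm genes that act downstream of GATA4 and GATA6, 17 were tested. Of all genes, 30.2% were called higher and 27.5% lower in serum-free vesicles, and 31.7% higher and 28.8% lower in serum vesicles, and the counts in serum-free vesicles were near these shares. Of the 17, 5 were higher and 6 lower in serum-free vesicles than in normal cells (median log2 fold change -0.25, against 0.03 over all genes), and 4 were higher and 7 lower in serum vesicles (-0.39, against 0.06). Hnf4a, the master factor of visceral endoderm, rose 7.63-fold in serum-free vesicles (64.1 against 8.39 CPM, adjusted p = 1.68e-11) and 4.91-fold in serum vesicles (40.9 CPM, adjusted p = 1.25e-09). Foxa2, a pioneer factor of endoderm, rose 1.83- and 1.94-fold in these groups. Amn, a subunit of the yolk sac uptake receptor, fell 23.1-fold in serum-free vesicles (2.40 against 57.5 CPM, adjusted p = 1.7e-13) and 6.67-fold in serum vesicles. Its partner Cubn fell 10.5- and 39.6-fold there. Lrp2 of the same list went the other way, at 250 CPM in serum-free and 510 CPM in serum vesicles against 39.9 CPM in normal cells. Nid1, a basement membrane linker, had 3 counts in serum-free vesicles against 188 in normal cells, a ratio of 79.8 (95% counting interval 26.9 to 390).

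In BCS-vacuolated cells 10 of these 17 endoderm genes were higher and 0 lower than in normal cells (median 0.56, against 0.00 over all genes), and in sorted CHIR-vacuolated cells 8 were higher and 1 lower (0.36, against 0.01). Unsorted CHIR-vacuolated cells had 0 higher and 2 lower (0.22, against 0.00). The type IV collagen gene Col4a2 rose 2.38-fold with BCS and 1.72-fold after the sort. Sox7, an endoderm factor that GATA4 and GATA6 switch on in mouse, rose 2.72-fold with BCS (10.5 against 3.82 CPM, adjusted p = 0.000857), and the laminin chain Lama1 rose 1.89-fold after the sort. Nid1 fell 5.81-fold and Amn 1.55-fold in CHIR-vacuolated cells. Called shares of all genes for reading these counts are 11.2% higher and 9.51% lower with BCS. After the sort they are 14.4% and 11.5%, and in CHIR-vacuolated cells 4.49% and 3.13%. Both directions together make 20.7% with BCS, 25.9% after the sort and 7.62% in CHIR-vacuolated cells. In serum-free and serum vesicles they make 57.7 and 60.4%.

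Among GATA cofactors, which include the FOG bridge to repressors, the LDB1 and LMO adaptors and the NuRD remodelling complex, 15 of 20 listed were tested, and 4 of these were higher and 7 lower in serum-free vesicles than in normal cells (median -0.54). In serum vesicles 5 were higher and 8 lower (-0.39). Of all genes, 30.2% were called higher and 27.5% lower in serum-free vesicles, and 31.7% and 28.8% in serum vesicles, so the counts of higher cofactors were near the background. Sorted CHIR-vacuolated cells had 4 higher and 3 lower (-0.10), CHIR-vacuolated cells 1 and 1 (0.11) and BCS-vacuolated cells 3 and 1 (0.19). Shares of all genes called higher and lower were 14.4% and 11.5% after the sort. They were 4.49% and 3.13% in CHIR-vacuolated and 11.2% and 9.51% in BCS-vacuolated cells. Ldb1, the adaptor that joins GATA sites over a distance, was higher in all 5 comparisons, 4.15-fold in serum-free vesicles (66.2 ± 11.8 against 16.0 ± 1.33 CPM, adjusted p = 3.75e-10), 2.56-fold in serum vesicles, 1.74-fold in sorted CHIR-vacuolated, 2.18-fold in CHIR-vacuolated and 1.45-fold in BCS-vacuolated cells. Lmo4, a partner of Ldb1, rose 4.06-fold in serum-free and 2.41-fold in serum vesicles. Mbd3, a NuRD subunit, was lower in all 5, by 2.75-fold in serum-free vesicles and 2.38-fold in serum vesicles. The 5 comparisons share the normal libraries. Zfpm1, which encodes FOG1, was lower in serum-free vesicles (10.7 against 23.2 CPM, 2.19-fold, adjusted p = 0.000669), serum vesicles (2.65-fold) and sorted CHIR-vacuolated cells (1.67-fold, adjusted p = 0.0296), while Zfpm2, which encodes FOG2, had 0 counts in every library.

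**Figure D5:**
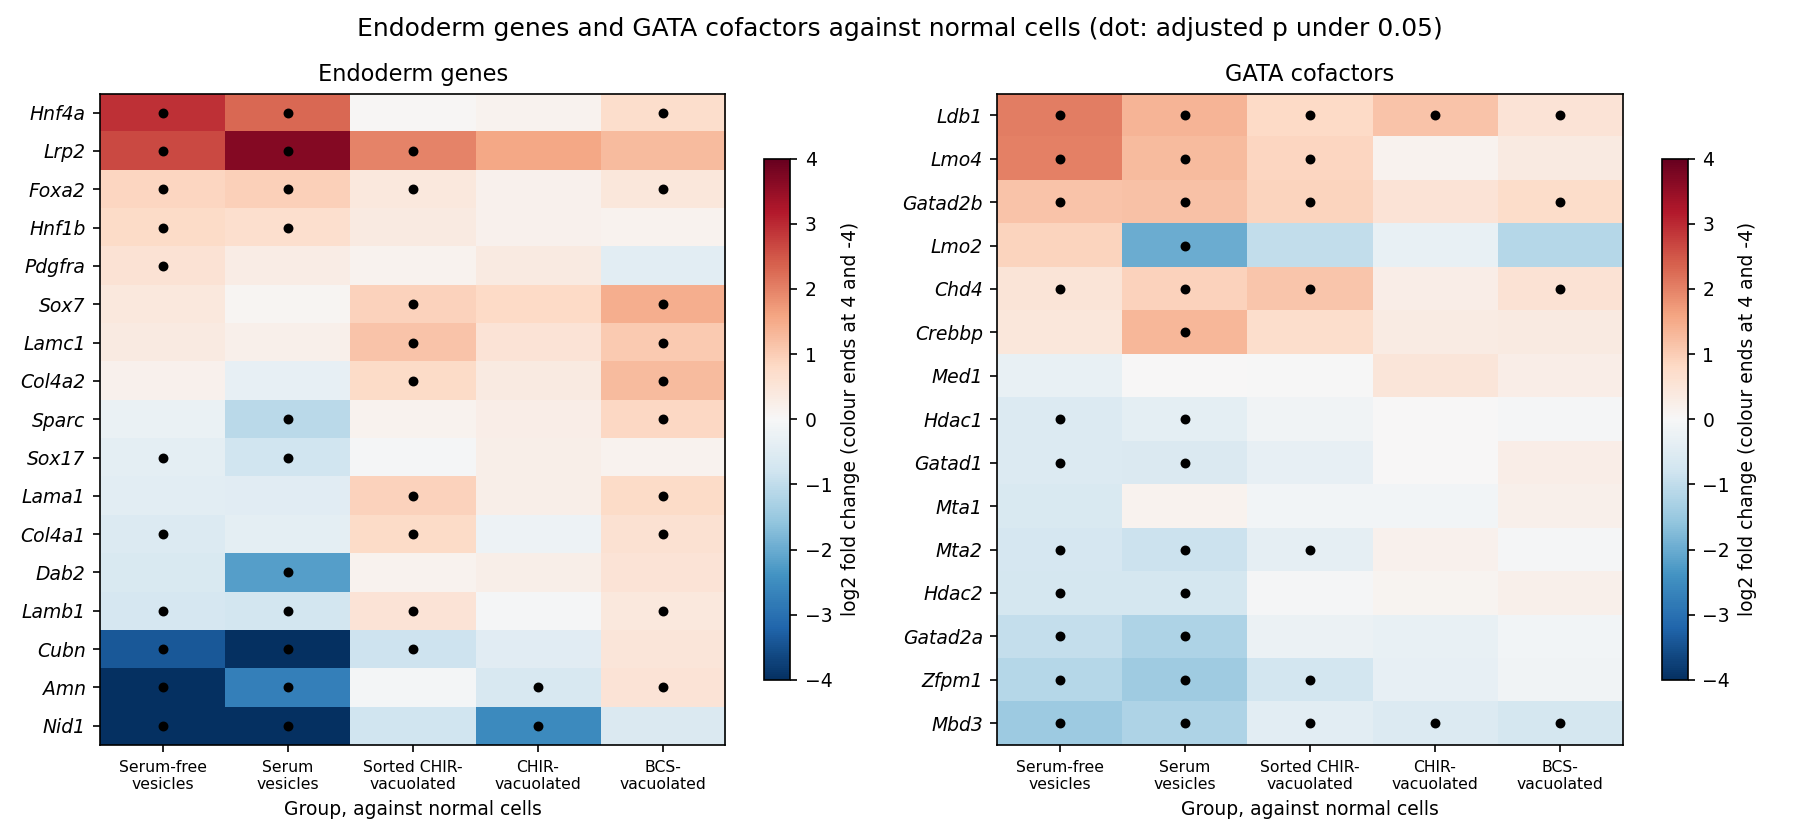
Log2 fold change against normal cells of 17 tested endoderm genes and 15 tested GATA cofactors (lines) in the 5 treated groups (columns), ordered by the serum-free vesicle value. Colour runs from -4 to 4 and ends there, and a dot marks an adjusted p under 0.05; Hnf4a and Lrp2 stand above and Cubn, Amn and Nid1 below in both vesicle groups, and Ldb1 and Mbd3 carry a dot in all 5 columns.

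Gata2 is also a gene of trophoblast and of blood and endothelium, so the markers of those cells are given beside it. The 8 trophoblast markers summed to 19.2 to 28.8 CPM in serum-free vesicles, 22.4 to 32.4 CPM in serum vesicles, 3.91 to 5.76 CPM in sorted CHIR-vacuolated, 3.97 to 5.05 CPM in CHIR-vacuolated, 5.77 to 6.99 CPM in BCS-vacuolated and 7.87 to 10.0 CPM in normal cells. Gcm1 and Prl3d1, which mark differentiated trophoblast, were at 0 in every library. The sum in vesicles was mostly Cdx2, a factor of trophectoderm and of gut endoderm, with 479 counts in serum-free vesicles (at least 125-fold higher) and 457 in serum vesicles (at least 146-fold higher) against 0 in normal cells, on a floor of 3 counts over the group. Of 14 trophoblast genes 4 were tested, and Cdx2 among them passed the filter through the vesicles. Plac1 was highest in normal cells (50 counts) with 0 in both vesicle groups, so the filter favoured its fall. The counts and medians that follow describe these 4 genes and are no result about the list. Cdx2 rose and 3 fell in both vesicle groups against normal cells (median -2.71 in serum-free and -2.37 in serum vesicles). The shares of all genes were 30.2% higher and 27.5% lower in serum-free and 31.7% and 28.8% in serum vesicles. Sorted and unsorted CHIR-vacuolated cells each had 0 higher and 1 lower (14.4% and 11.5%, and 4.49% and 3.13%, of all genes). BCS-vacuolated cells had 1 and 1 (11.2% and 9.51%). Eomes, the trophoblast stem cell factor, fell 8.49-fold in serum-free and 10.2-fold in serum vesicles, and Tead4 5.02- and 2.61-fold. The part of trophoblast-like cells in the Gata2 level was not tested.

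For blood and endothelium, the summed level of 7 markers was 8.66 to 18.5 CPM in serum-free vesicles, 14.1 to 21.4 CPM in serum vesicles, 36.3 to 39.8 CPM in sorted CHIR-vacuolated, 39.5 to 51.4 CPM in CHIR-vacuolated, 33.1 to 53.2 CPM in BCS-vacuolated and 56.0 to 58.9 CPM in normal cells. The sum was lowest in vesicles and highest in normal cells and was mostly Tek, an angiopoietin receptor, while Hbb and Cd34 were at 0 in every library. In the wider list, 8 of 18 genes were tested, of which 3 were higher and 2 lower in serum-free vesicles (median 0.80) and 3 and 3 in serum vesicles (-0.17). These counts lie close to the shares of all genes, 30.2% higher and 27.5% lower in serum-free and 31.7% and 28.8% in serum vesicles. Itga2b among the tested genes had 3 counts in normal cells against 31 in serum-free and 49 in serum vesicles. It passed the filter on low counts through the vesicles. There was 1 higher in each vacuolated group, and 1 lower in sorted CHIR-vacuolated cells. Shares of all genes called higher and lower were 14.4% and 11.5% after the sort. They were 4.49% and 3.13% in CHIR-vacuolated and 11.2% and 9.51% in BCS-vacuolated cells. Kit, a receptor gene that GATA2 activates in mouse blood progenitors, was higher in all 5 comparisons with normal cells, 7.37-fold in serum-free vesicles (276 against 37.4 CPM, adjusted p = 6.44e-14), 6.35-fold in serum vesicles, 2.18-fold in sorted CHIR-vacuolated, 1.72-fold in CHIR-vacuolated and 1.65-fold in BCS-vacuolated cells. Mecom, a factor of blood stem cells, rose 9.48-fold in serum-free and 3.39-fold in serum vesicles. Tal1, the usual partner of GATA2 in blood, had 1 count in serum-free vesicles, 1 in normal cells and 0 in each other group.

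Of 17 genes that work with GATA3 in epithelia, 6 passed the filter on low counts. Among them Ehf, with 6 counts in normal cells, and Upk1a, with 5, had few counts outside vesicles, so the filter favoured genes that are high there and the count is no result about the list. Of the 6, 4 were higher and 1 lower in serum-free vesicles (median 2.69) and 4 and 2 in serum vesicles. The shares of all genes called higher and lower were 30.2% and 27.5% in serum-free and 31.7% and 28.8% in serum vesicles. The epithelial factors Grhl2 (14.4- and 10.5-fold) and Elf3 (4.69- and 3.89-fold) rose in serum-free and serum vesicles, in that order, while Klf5 fell 1.80- and 2.08-fold. After the sort 1 was higher and 0 were lower (0.25), where 14.4% and 11.5% of all genes were. CHIR-vacuolated and BCS-vacuolated cells had 0 called, against 4.49% higher and 3.13% lower, and 11.2% and 9.51%, of all genes.

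Of 7 listed Wnt feedback genes, which respond to Wnt signalling, 4 passed the filter on low counts. Axin2, Lgr5 and Lef1 had 0 counts in normal cells and Tcf7 had 6, so they passed it through the groups where they are high, and the counts and medians that follow describe these 4 genes and are no result about the list. All 4 were higher in both vesicle groups, 2 in both CHIR99021-vacuolated groups and 0 with BCS. The share of all genes called higher was 30.2% in serum-free and 31.7% in serum vesicles. It was 14.4% after the sort, 4.49% in CHIR-vacuolated and 11.2% in BCS-vacuolated cells. With genes at 0 counts set at their lower bound, the median log2 fold change was 4.70 in serum-free vesicles, 5.98 in serum vesicles, 1.96 in sorted CHIR-vacuolated, 2.06 in CHIR-vacuolated and 0.36 in BCS-vacuolated cells. Lgr5, a Wnt target and receptor, had 978 counts in serum-free vesicles (at least 256-fold higher), 771 in serum vesicles (at least 247-fold), 106 in sorted CHIR-vacuolated (at least 20.3-fold), 135 in CHIR-vacuolated (at least 38.6-fold) and 5 in BCS-vacuolated cells, against 0 in normal cells. Lgr5, like Gata2, was highest in vesicles and lowest in BCS-vacuolated and normal cells.

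The list of FGF and ERK feedback genes, most of them read-outs of the signal that starts primitive endoderm, also holds FGF receptor genes. Of its 8 tested genes, 6 were lower and 1 higher in serum-free vesicles (median -1.13), and 5 lower and 1 higher in serum vesicles (-1.16). The higher gene in both was Egr1, with 152 counts in serum-free and 62 in serum vesicles against 8 in normal cells. The filter on low counts favoured Egr1 through the groups where it is high. Of all genes, 27.5% were called lower and 30.2% higher in serum-free vesicles, and 28.8% and 31.7% in serum vesicles. Spry2, a feedback inhibitor, fell 2.26- and 2.95-fold there and was lower in all 5 comparisons with normal cells. In sorted CHIR-vacuolated cells 3 were lower and 1 higher (-0.33), CHIR-vacuolated cells 1 and 0 (0.19), and BCS-vacuolated cells 2 and 1 (-0.28). Of 8 BMP ligands and targets, 5 were higher and 2 lower in serum-free vesicles (0.90), 3 and 3 in serum vesicles (0.21), 2 and 2 in sorted CHIR-vacuolated cells (0.40), 0 and 1 in CHIR-vacuolated cells (0.14) and 3 and 1 in BCS-vacuolated cells (-0.15). The 3 higher BMP genes in serum vesicles are near the share of all genes. For both lists, shares of all genes called higher and lower were 14.4% and 11.5% after the sort. They were 4.49% and 3.13% in CHIR-vacuolated and 11.2% and 9.51% in BCS-vacuolated cells. Bmp4 rose 99.3-fold in serum-free vesicles (47.7 against 0.471 CPM, adjusted p = 4.73e-12) and 50.8-fold in serum vesicles, against 8 counts in normal cells. The filter favoured Bmp4 through the groups where it is high.

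Of 3 epiblast genes tested, Pou5f1, the pluripotency factor that rat XENP cells keep, fell in all 5 comparisons, to 0.746 CPM in serum-free vesicles and 1.25 CPM in serum vesicles against 118 CPM in normal cells (adjusted p = 7.5e-15 and 3.34e-14). Pou5f1 stood at 38.2 CPM in sorted CHIR-vacuolated, 39.8 CPM in CHIR-vacuolated and 72.3 CPM in BCS-vacuolated cells. Klf4 rose 1.87-fold in serum-free vesicles, 2.42-fold in serum vesicles and 3.10-fold in sorted CHIR-vacuolated cells. None of 12 mesoderm and heart genes in the files passed the filter, and their 7 markers summed to at most 2.07 CPM in any library. The 8 feeder fibroblast markers summed to at most 15.4 CPM, reached in a serum vesicle library, and of 2 such genes tested Col3a1 was lower in serum-free vesicles (0.360 ± 0.231 against 1.78 ± 1.95 CPM, adjusted p = 0.0298).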

How the data were processed

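Total RNA depleted of ribosomal RNA was made into directional libraries and sequenced as paired reads, per the labels' protocols. The deposited tables hold raw read counts per gene symbol in 3 columns a library (unstranded and each strand). The submitters' processing notes name bcl2fastq, Trimmomatic 0.38, STAR 2.6.1 and the rn6 build. The last column, the strand with nearly all counts, was used. The other strand held 1.70 to 2.85%.

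The software was edgeR 4.0.16 and limma 3.58.1 under R 4.3.3, and DESeq2 1.42.0 for an alternative test. After edgeR's filter by group (minimum count 10) and TMM scaling, the 6 group means were estimated together from the 18 libraries (12 residual degrees of freedom) and compared by the robust quasi-likelihood test, with Benjamini-Hochberg adjustment over 11503 genes in each of 9 comparisons. The code was tested on simulated data. Likeness used Pearson's r of log2 CPM with a prior count of 2, passing over placeholder symbols, and named 3 genes a member.

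The members and 12 gene lists (143 genes, 138 in the files, 74 tested) were chosen with earlier results of these data known, and direction of the lists is no independent support. From each list, up to 3 called genes a direction by adjusted p in a comparison with normal cells were named; Zfpm2, Gata1, Gata5, Trps1, Tal1 and the defining markers are named as the family, partners or markers whatever their values. Alternatives were another test, scaling, filter, fit, block, passage, strand and library size, and leaving out each library. Replicate numbers were checked for pairing.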

Additional observations from a re-analysis of the deposited data

Results flagged for a closer look

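The strand opposite to the genes, which the comparisons do not use, held reads over Gata4 and Gata6 at a larger share in some treated groups than in normal cells. Over Gata4 they made up 0.385% of the reads on both strands in serum-free vesicles (16 of 4155, exact 95% interval 0.22 to 0.625%) and 0.319% in CHIR-vacuolated cells (18 of 5640), against 0.0423% in normal cells (3 of 7087). In serum-free vesicles 13 of the 16 came from 1 library. Over Gata6 they made up 0.896% in CHIR-vacuolated cells (9 of 1005), 6 of them in 1 library, against 0 of 1394 in normal cells, with an exact upper 95% bound of 0.264%. All 3 shares lie below the opposite-strand share of all genes in those libraries, 1.70 to 2.47% in serum-free vesicles and 2.67 to 2.85% in CHIR-vacuolated cells. The intervals cover counting error only.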

How the results depend on the processing

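Of 377 values of Gata2, Gata4 and Gata6 under other settings, 359 kept their direction and their side of the threshold, as did 109 of 126 counts of called genes within 1.5 times. DESeq2, RLE factors, no filter on low counts, passage as a covariate, unstranded counts and library sizes without the 2 most abundant genes changed none of them. With the 2 groups fitted alone, CHIR-vacuolated against normal cells gave 1856 called genes (876 in the fit to all libraries), serum-free against serum vesicles 1223 (2806) and sorted against unsorted CHIR-vacuolated cells 2576 (1350). There Gata6 in sorted CHIR-vacuolated against normal cells passed (0.30) and Gata2 in serum-free against serum vesicles did not (-0.54). Gata2 in BCS-vacuolated against normal cells could not be fitted so, since it fails the filter in those groups. With the replicate number as a block, Gata4 in BCS-vacuolated against normal cells passed (-0.38, adjusted p = 0.0433), and no other call of a member changed. Same-numbered libraries of 2 groups had correlations of their deviations between -0.230 and 0.104, and 0 of 15 pairs of groups had all of them above 0.1. Some same-numbered samples stood at the same passage, such as normal and CHIR-vacuolated replicates 1 (passage 37) and 3 (passage 51). With 3 libraries a group, these correlations cannot decide whether the numbers pair the samples. The cause of these changes was not tested.

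Leaving out 1 library at a time gave these ranges. Gata2 ran from -0.31 to 1.08 in BCS-vacuolated against normal cells, turning round without BCS-vacuolated replicate 2, and from -0.63 to -0.37 in serum-free against serum vesicles. Gata4 ran from -0.63 to -0.48 in CHIR-vacuolated, -0.48 to -0.33 in sorted CHIR-vacuolated and -0.50 to -0.26 in BCS-vacuolated against normal cells. Called genes ran from 504 to 638 in CHIR-vacuolated, 1982 to 2471 in sorted CHIR-vacuolated and 1275 to 2606 in BCS-vacuolated against normal cells. They ran from 1725 to 3004 in serum-free against serum vesicles, 690 to 954 in sorted against unsorted CHIR-vacuolated cells and 748 to 1947 in CHIR-vacuolated against BCS-vacuolated cells. Gata2 in normal and BCS-vacuolated cells, and Gata3 throughout, are limited by depth.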
